A study of Mus musculus with 6 samples.

Results

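Aquaporins are membrane channels that let water, and in some members glycerol, cross cell membranes along their gradients. The 7 genes described here, Aqp1, Aqp3, Aqp4, Aqp7, Aqp8, Aqp9 and Aqp11, were matched by gene symbol in the platform annotation of a liver expression array series. Of these 7 genes, 6 were found, with 11 probe sets among them, out of 12393 genes and 20380 probe sets in all. Aqp11, for a channel of the endoplasmic reticulum, had no probe set under its present or former symbols in the annotation used and is not analysed here. Where a gene had several probe sets, the lead probe set is the one with the highest mean over the 6 arrays, and that mean is the measured value that chose it. The family was taken up with earlier results of these arrays known, a large fall of Aqp4 among them, so the values of Aqp4 are given as a description. Aqp4 was fitted with all other genes, but its call in that fit is not read as a test.

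The arrays hold total liver RNA of 6 mice aged 1 month on a C57 background, all labelled as Ppara KO. Of these mice, 3 had received TFEB, which switches on genes of lysosomes and autophagy, by injection of an adenoviral vector, and the other 3 were not injected and received no vector. An effect of the vector itself and an effect of TFEB therefore cannot be told apart. The labels name no promoter of the vector, no dose, no time after injection and no sex of the mice. All levels are log2 expression values, so a difference of 1 is a doubling, and every change is TFEB-injected minus not-injected.

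In liver, water channels serve bile formation and the balance of water across the hepatocyte membranes, while glycerol channels serve the uptake of glycerol released from fat for use in glucose and lipid synthesis. Aqp1, Aqp4 and Aqp8 encode channels known mainly for water, and Aqp3, Aqp7 and Aqp9 encode aquaglyceroporins, which pass water and glycerol. PPAR-alpha, the receptor encoded by Ppara, is known in mouse liver to act on genes of glycerol metabolism, Aqp3 and Aqp9 among them, and insulin is known to lower Aqp7 and Aqp9.

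Array-to-array correlations over all genes were 0.995 to 0.998 among TFEB-injected and 0.998 to 0.999 among not-injected arrays, and 0.989 to 0.993 between the groups. The Tfeb probe set changed by 0.04 ± 0.07 (SE) and the Ppara probe set by 0.13 ± 0.05, with adjusted p of 0.777 and 0.149 (limma). The labels name neither the species of the TFEB in the vector nor the deleted part of Ppara, so these probe sets check nothing about the labels. The spread was wider in the TFEB-injected group, with a median ratio of SDs of 1.24 over all genes. The tissue label was set against liver markers: transthyretin (Ttr) and albumin (Alb) lay at 14.86 to 14.88 and 14.94 to 14.96 in TFEB-injected and at 14.87 to 14.88 and 15.01 to 15.03 in not-injected arrays.

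Across the family, the water channel Aqp4 was 3.73-fold lower in TFEB-injected livers, Aqp8 was lower in 2 of the 3 injected mice, and the lead probe sets of the remaining members moved by at most 0.19 on the log2 scale. Of the 5 measured members other than Aqp4, 1 rose (Aqp3) at an adjusted p under 0.05 by limma over all genes, and 4 did not pass. The same rule called 17.9% of all 12393 genes, 9.99% as higher and 7.92% as lower, so the number of calls in so small a family shows nothing particular to it. Besides Aqp4, groups did not overlap for the lead probe sets of Aqp3 and Aqp9, against 37.1% of all genes. Of these 5, 0 were called without TFEB-injected replicate 1 or 2 or without any 1 of the not-injected replicates, and 2 (Aqp3 and Aqp8) without TFEB-injected replicate 3.

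**Figure D1:**
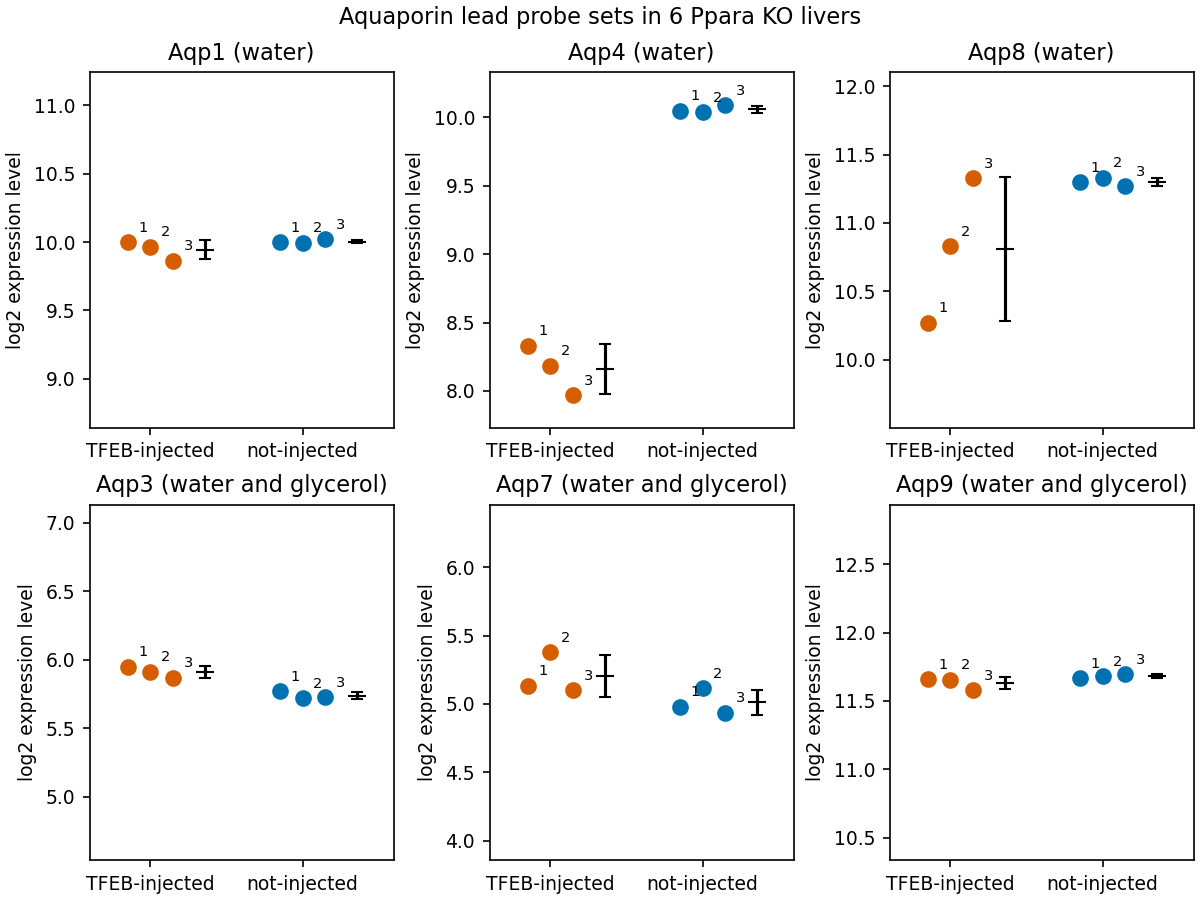
Log2 expression level of the lead probe set of each of the 6 measured aquaporin genes, with 1 point per array (replicate number beside it) and the mean and SD (bars) of the 3 arrays of each group. Aqp4 lies at 7.97 to 8.33 in the TFEB-injected and at 10.04 to 10.09 in the not-injected arrays, and Aqp8 spreads over 10.27 to 11.33 in the TFEB-injected arrays; each panel spans the same range of log2 units.

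Aqp4, the water channel of astrocyte end-feet that is also found in bile duct epithelium, stomach and skeletal muscle, had the widest gap between groups in the family. Its lead probe set lay at 8.33, 8.18 and 7.97 in TFEB-injected livers, against 10.05, 10.04 and 10.09 in not-injected livers. Every injected liver was thus far below every not-injected liver. The change was -1.90 ± 0.09 (SE, 3 arrays a group; 95% interval -2.10 to -1.69), and 3 of all genes fell further. The further Aqp4 probe set lay at 5.89, 5.71 and 5.45 in TFEB-injected livers and at 7.29, 7.07 and 7.36 in not-injected livers. Its groups did not overlap either, with a change of -1.56 ± 0.12. In both probe sets the injected livers ranked in the same order, with replicate 1 highest and replicate 3 lowest. The not-injected livers differed little from each other on the lead probe set (SD 0.03).

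Markers of other cell types known to carry AQP4 changed by smaller amounts than Aqp4 did. Of 6 measured cholangiocyte markers 1 fell and 0 rose, with a median change of -0.13, and the lowest was Sox9, for a bile duct transcription factor, at -0.33 ± 0.05. Their summed level, as log2 of the sum of the linear values, was 8.34 to 8.39 in TFEB-injected and 8.54 to 8.58 in not-injected arrays. Of 6 skeletal muscle markers 1 fell and 0 rose, with a median of -0.07, and their summed level was 8.03 to 8.06 in TFEB-injected and 8.07 to 8.19 in not-injected arrays. The muscle call, Tnnc2 for a troponin (-0.22 ± 0.06), was lost without TFEB-injected replicate 1, 2 or 3 or not-injected replicate 2 or 3, with changes of -0.23 to -0.18 and adjusted p up to 0.096 (limma). The muscle markers lay at 4.145 to 6.34 over the 6 arrays, and the cholangiocyte markers other than Sox9 at 3.525 to 6.38. All of these levels are below the array medians of 6.92 to 6.93, where changes may be compressed. The part of bile duct and muscle cells in the Aqp4 value was not tested. In bulk liver RNA, fewer cells of a type and less RNA per cell cannot be told apart.

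The 3 genes whose levels followed Aqp4 most closely over the 6 arrays were Moxd1 (Pearson r 0.9996), for a monooxygenase-like protein, Ttc39c (0.9993) and Hnf4aos (0.9993), the antisense transcript at the Hnf4a locus. They were picked from all genes tested, and the gap between the groups makes up most of such an r. Moxd1 changed by -1.84 ± 0.09, close to the size of Aqp4, whereas Hnf4aos changed by -0.84 ± 0.06 and Ttc39c by -0.58 ± 0.05. Of 9 measured genes of the dystrophin complex and other partners that anchor or act with AQP4 in brain and muscle, 1 fell, 0 rose, and the median was 0.05. The call was Dmd, for dystrophin itself, at 9.37, 9.37 and 9.18 in TFEB-injected and 9.66, 9.66 and 9.67 in not-injected livers (-0.36 ± 0.06; adjusted p = 0.00807, limma). The inward rectifier potassium channel gene Kcnj10 changed by 0.08 ± 0.06 and the syntrophin gene Sntb2 by -0.07 ± 0.07.

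Aqp8 encodes the water channel of the hepatocyte's canalicular membrane and intracellular vesicles, which also passes hydrogen peroxide and ammonia. It lay at 10.27, 10.83 and 11.33 in TFEB-injected livers, against 11.30, 11.33 and 11.27 in not-injected livers. The not-injected livers lay close together, while the injected livers ran from well below them (replicate 1) to level with them (replicate 3). The SD was 0.53 in TFEB-injected and 0.03 in not-injected livers. Only 46 of all 12393 genes (0.371%) had an SD as large within the injected group. The change was -0.49 ± 0.23 (95% interval -1.03 to 0.04) and did not pass (adjusted p = 0.193, limma). That value turned on single livers: it was -0.22 without TFEB-injected replicate 1, and -0.75 with an adjusted p of 0.0152 without TFEB-injected replicate 3. Aqp8 had 1 probe set, so no further probe set bears on it.

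The order of the injected livers for Aqp8 ran opposite to that for Aqp4, which was highest in replicate 1 and lowest in replicate 3. Relative to the mean of the not-injected livers, TFEB-injected replicates 1, 2 and 3 differed by -1.03, -0.47 and 0.03 for Aqp8 and by -1.73, -1.87 and -2.09 for Aqp4. Ppargc1a, for a coactivator induced by fasting, had the same order as Aqp8 with 8.93, 9.73 and 10.42 in TFEB-injected replicates 1, 2 and 3, against 7.43 to 7.46 in not-injected livers. The glucose-6-phosphatase gene G6pc had the opposite order, with 12.76, 12.46 and 11.60 in TFEB-injected replicates 1, 2 and 3, against 13.42 to 13.45 in not-injected livers. These 2 genes were set beside Aqp8 after their values were seen, and 3 livers allow no test of an order.

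The start region of Aqp8 is shown because it is the only one among the start regions searched that holds the 6-base E-box core CACGTG, the letters TFEB is known to recognise. The start region of Aqp3, the member that rose, is shown beside it, with a TATA box. Both come from RefSeq (GRCm38.p6) and run from 250 bases before to 50 bases after the start, 5′ to 3′, with matches in capitals.
Aqp8, chr7:123462044-123462343, strand plus: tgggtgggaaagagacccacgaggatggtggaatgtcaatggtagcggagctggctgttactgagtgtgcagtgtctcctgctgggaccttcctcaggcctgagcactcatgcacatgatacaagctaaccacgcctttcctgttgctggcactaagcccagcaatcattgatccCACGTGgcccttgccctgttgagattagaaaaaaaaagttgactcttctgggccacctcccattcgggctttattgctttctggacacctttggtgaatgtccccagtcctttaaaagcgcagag
Aqp3, chr4:41098134-41098433, strand minus: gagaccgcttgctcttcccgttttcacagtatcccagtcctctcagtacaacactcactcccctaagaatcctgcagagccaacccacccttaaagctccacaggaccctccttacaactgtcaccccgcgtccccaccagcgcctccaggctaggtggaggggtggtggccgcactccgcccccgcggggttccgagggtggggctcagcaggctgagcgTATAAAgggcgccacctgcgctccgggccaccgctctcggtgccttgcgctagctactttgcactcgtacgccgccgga

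RefSeq windows were at hand for 6 members, with 8 start sites in all, and the Aqp4 window is not used here. Motifs were searched as exact letters on both strands. CACGTG occurred in 1 of the 8 windows, that of Aqp8, at position -75 from the start, and in 7.15% of all 32851 windows. The longer palindrome of lysosomal TFEB targets, CACGTG preceded by GT and followed by AC, occurred in 0 of the 8 and in 0.33% of all windows. The PPAR element, AGGTCA repeated in the same direction with 1 base of any kind between the copies, occurred in 0 of the 8 and in 0.04% of all windows. Its half-site AGGTCA, which lies within that element, occurred in 3 of the 8, those of Aqp7 and Aqp11, and in 16.26% of all windows. The windows of the Aqp7 start sites overlap and share a match, so they do not count as separate finds. The insulin response element TGTTTTC occurred in 1 of the 8, at a start site of Aqp9, and in 7.35% of all windows. The forkhead site TGTTTAC occurred in 0 of the 8 and in 3.65% of all windows. TATAAA occurred in 1 of the 8, in Aqp3, and in 13.62% of all windows. These matches describe letters in short windows and say nothing of binding.

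Aqp1, for the water channel of red cells, capillary endothelium and bile duct epithelium, lay at 10.00, 9.97 and 9.86 in TFEB-injected livers, against 10.00, 9.995 and 10.02 in not-injected livers. The groups overlapped. The change was -0.06 ± 0.05 and did not pass (adjusted p = 0.474, limma) with a 95% interval of -0.18 to 0.06. Most markers of the cells that carry AQP1 did not pass, as was so of all genes, of which 17.9% passed. Among 10 endothelial markers 2 rose and 0 fell, Stab2 for a scavenger receptor (1.42 ± 0.05) and Lyve1 for a receptor of hyaluronan (0.89 ± 0.07), with a median of -0.03. The summed endothelial level was 11.75 to 11.86 in TFEB-injected and 11.44 to 11.49 in not-injected arrays. Among 5 erythroid markers 1 fell and 0 rose, with a median of -0.14, and the summed level was 9.70 to 9.85 in TFEB-injected and 10.39 to 10.42 in not-injected arrays. The erythroid call was Alas2, for heme synthesis, at -0.81 ± 0.07. The globin gene Hba-a1 changed by 0.03 ± 0.06. It lay at 4.48 to 4.65 in TFEB-injected and 4.48 to 4.62 in not-injected livers, below the array medians. Changes may be compressed at such levels, so the Hba-a1 value cannot tell whether red cells changed. The part of these cells in the Aqp1 level was not tested.

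Aqp9 encodes the main glycerol channel of the hepatocyte's sinusoidal membrane. Its lead probe set lay at 11.66, 11.65 and 11.58 in TFEB-injected livers, against 11.67, 11.68 and 11.69 in not-injected livers. The groups did not overlap, by a narrow margin. The change was -0.05 ± 0.05 (95% interval -0.16 to 0.06) and did not pass (adjusted p = 0.51, limma). The further Aqp9 probe set lay at 8.55, 8.61 and 8.39 in TFEB-injected livers, against 8.79, 8.70 and 8.71 in not-injected livers. Its change was -0.22 ± 0.07, with no overlap, and did not pass over all probe sets (adjusted p = 0.0701, limma). Both Aqp9 probe sets were thus lower in every injected liver by amounts far smaller than the fall of Aqp4.

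Aqp3 encodes an aquaglyceroporin of skin and kidney collecting duct that also passes hydrogen peroxide. Its lead probe set lay at 5.95, 5.91 and 5.87 in TFEB-injected livers, against 5.77, 5.72 and 5.73 in not-injected livers, all below the array medians of 6.92 to 6.93. The groups did not overlap, and the gene rose by 0.17 ± 0.05, or 1.13-fold (95% interval 0.07 to 0.28; adjusted p = 0.0399, limma). The call was lost without TFEB-injected replicate 1 or 2 or without not-injected replicate 1, 2 or 3, with changes of 0.15 to 0.19 and adjusted p of 0.091 to 0.13. It was also lost with every probe set tested (adjusted p = 0.0501) and with an intensity trend (adjusted p = 0.0971). The other Aqp3 probe sets did not follow the lead: their changes were 0.08 ± 0.09 and -0.07 ± 0.06, with overlapping groups. The mean of the 3 probe sets changed by 0.06 (adjusted p = 0.469).

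The 3 genes whose levels followed the Aqp3 lead probe set most closely over the 6 arrays were Cybb (Pearson r 0.9982), for the oxidase subunit of phagocytes, Tmem101 (0.9966) and Tnfaip2 (0.9946). These genes too were picked from all genes tested, and the gap between the groups makes up most of such an r. Cybb changed by 0.49 ± 0.07, Tnfaip2 by 0.91 ± 0.13 and Tmem101 by 0.22 ± 0.05. Of 8 macrophage and Kupffer cell markers 6 rose and 0 fell, beside 9.99% of all genes called higher. Their median was 0.49, and the smallest p was that of Cd5l (0.63 ± 0.05), for a secreted macrophage protein. Their summed level was 13.09 to 13.28 in TFEB-injected and 12.65 to 12.69 in not-injected arrays. The part of macrophages in the Aqp3 value was not tested.

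Aqp7, the glycerol exit channel of fat cells, lay at 5.13, 5.38 and 5.10 in TFEB-injected livers, against 4.98, 5.12 and 4.94 in not-injected livers. The groups overlapped, and the change of 0.19 ± 0.09 (95% interval -0.01 to 0.40) did not pass (adjusted p = 0.177, limma). The further Aqp7 probe set, of a kind that can detect related transcripts, lay at 3.59, 3.46 and 3.78 in TFEB-injected livers, against 3.31, 3.37 and 3.38 in not-injected livers. Its change was 0.25 ± 0.08, with no overlap (adjusted p = 0.0833 over all probe sets, limma). The mean of the 2 probe sets changed by 0.22 and did pass (adjusted p = 0.0182). Among 4 adipocyte markers 1 rose and 0 fell, with a median of -0.04, and the summed level was 7.24 to 7.27 in TFEB-injected and 7.18 to 7.25 in not-injected arrays. The call was Cidec, for a lipid droplet protein (0.43 ± 0.11), while the adiponectin gene Adipoq lay at 3.81 to 3.96 in TFEB-injected and 3.83 to 4.03 in not-injected livers. The Cidec call was lost without TFEB-injected replicate 2 or not-injected replicate 1, 2 or 3, with changes of 0.40 to 0.46 and adjusted p up to 0.105. Aqp3 and Aqp7 are neighbouring coding genes on mouse chromosome 4 in the RefSeq gene table. The levels of Aqp3 and Aqp7 were low, and the files hold no detection calls, so whether they lie above background is not known.

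**Figure D2:**
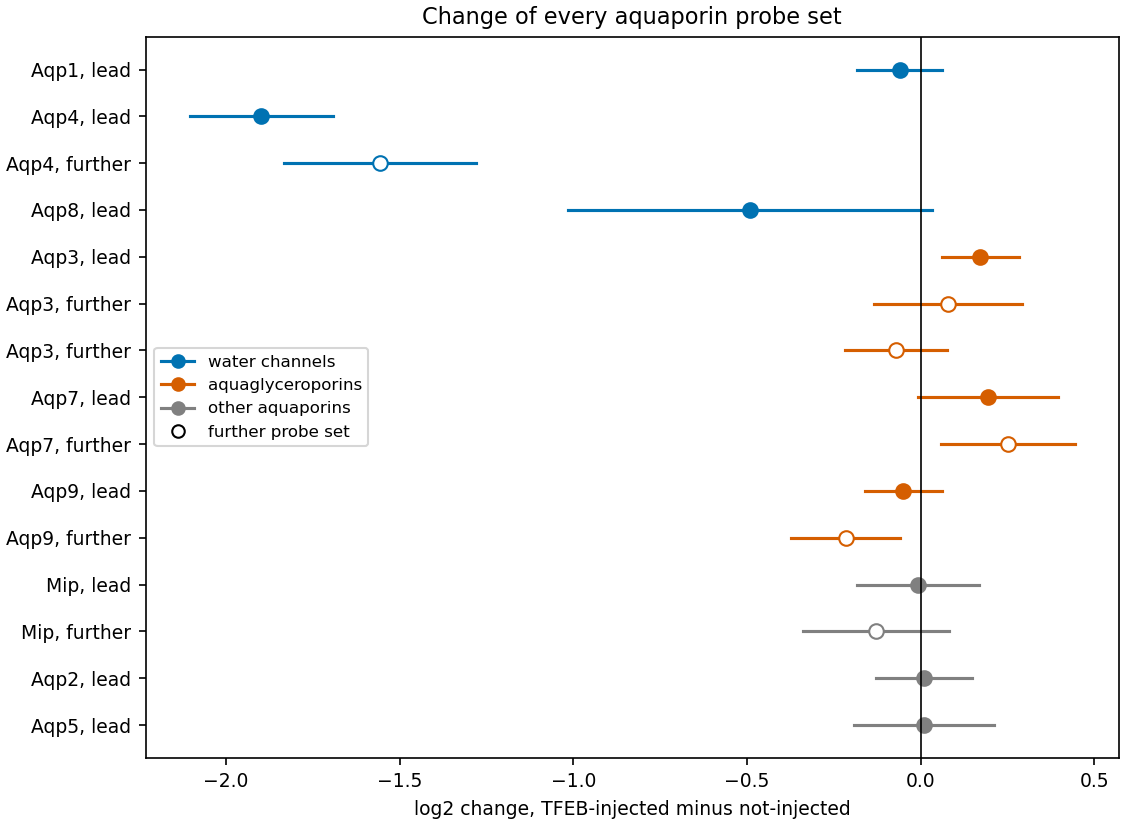
Log2 change (TFEB-injected minus not-injected, x axis) of every probe set of the 6 measured members and of Mip, Aqp2 and Aqp5, with 95% intervals (lines) from a fit of all probe sets. Filled points are lead probe sets and open points further probe sets; both Aqp4 probe sets (-1.90 and -1.56) lie far left of the others, and the interval of Aqp8 is the widest.

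Set side by side, the 3 water channel genes changed by -1.90, -0.49 and -0.06, a median of -0.49, and the 3 aquaglyceroporin genes by 0.19, 0.17 and -0.05, a median of 0.17. Over all genes the median change was -0.01. By sign, 3 of 3 water channel genes and 1 of 3 aquaglyceroporin genes were lower in the injected livers. Over all 11 probe sets, 4 of 4 in the water class and 3 of 7 in the glycerol class were lower by sign. Of those 4, 2 belong to Aqp4, whose fall was known when the family was chosen. The others are the probe sets of Aqp1 and Aqp8, whose groups overlapped and whose changes did not pass. In the fit of every probe set, none of the 9 probe sets of the other members passed at an adjusted p under 0.05 (limma), against 15.4% of all probe sets. The difference between the classes was not tested, since it rests on 3 genes a class.

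Of 3 other aquaporin genes measured, 0 passed. The kidney collecting duct channel gene Aqp2 had the smallest p, at 0.01 ± 0.06 (adjusted p = 0.935, limma), and the gland and lung channel gene Aqp5 and the lens channel gene Mip changed by 0.01 ± 0.09 and -0.01 ± 0.07. Their lead levels of 5.12 to 6.56 over the 6 arrays can be read only as probe signal in a tissue not known to use them. The lead probe sets of the members Aqp3 (5.72 to 5.95) and Aqp7 (4.94 to 5.38) lay within or below that range. The changes of Aqp3 and Aqp7 may therefore be changes of probe signal too.

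Genes that handle glycerol after it enters the cell changed in both directions. Of 4 measured genes of glycerol use 1 rose and 2 fell, with a median of -0.34. Gpd1, for the cytosolic glycerol-3-phosphate dehydrogenase, lay at 9.66, 9.49 and 9.27 in TFEB-injected livers, against 9.99, 10.04 and 10.05 in not-injected livers, and fell by 0.55 ± 0.09 on the log2 scale (adjusted p = 0.00727, limma). Tkfc, for the kinase of dihydroxyacetone and glyceraldehyde, fell by 0.73 ± 0.10, and Pgp, for a phosphatase that acts on glycerol 3-phosphate, rose by 0.47 ± 0.05. The mitochondrial dehydrogenase gene Gpd2 changed by -0.12 ± 0.06 and did not pass. The glycerol kinase gene is not analysed here.

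Of 5 genes of the lipases that release glycerol and their regulators, 1 rose and 0 fell, with a median of 0.05. Pnpla2, for the adipose triglyceride lipase, rose by 0.28 ± 0.06 (adjusted p = 0.0157, limma). That call was lost without TFEB-injected replicate 2 or not-injected replicate 1 or 2 (changes of 0.27 to 0.28; adjusted p of 0.06 to 0.0709) and with the mean of its probe sets (0.10; adjusted p = 0.394). The count was 2 without TFEB-injected replicate 3.

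Of 6 measured genes of glucose output, 4 fell and 1 rose, with a median of -0.37. Pck1, for phosphoenolpyruvate carboxykinase, lay at 12.53, 12.53 and 12.49 in TFEB-injected livers, against 13.24, 13.17 and 13.18 in not-injected livers. Its enzyme acts outside the path from glycerol to glucose, so the count and the median are not of that path alone. The glucose transporter gene Slc2a2 fell by 0.39 ± 0.04, and Tpi1, for triosephosphate isomerase, rose by 0.36 ± 0.07. The hepatocyte glycerol channel Aqp9, for comparison, had a change of -0.05 on its lead probe set.

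Genes of bile formation, to which canalicular Aqp8 is linked, gave 1 riser and 3 fallers among 10 measured, around a median of -0.07. Abcb11, for the bile salt export pump, lay at 11.72, 11.62 and 11.54 in TFEB-injected livers, against 12.03, 12.03 and 12.11 in not-injected livers (-0.43 ± 0.06; adjusted p = 0.00276, limma). Abcg8, for a sterol exporter subunit, fell by 0.58 ± 0.05, and Abcg2, for an exporter of drugs and porphyrins, rose by 0.66 ± 0.05. None of the 3 injected livers overlapped the not-injected ones for Abcb11, unlike Aqp8, whose TFEB-injected replicate 3 did.

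Genes of insulin, glucagon and fasting signalling, with targets of these signals among them, gave 2 higher and 2 lower genes of 12, with a median of -0.14. Ppargc1a rose by 2.25 ± 0.32 and the nuclear receptor gene Pparg by 0.86 ± 0.21, while Igfbp1, a gene that insulin represses, fell by 0.59 ± 0.07 and the forkhead factor gene Foxo3 by 0.15 ± 0.04. The Pparg call was lost without TFEB-injected replicate 2 or not-injected replicate 1, 2 or 3 (changes of 0.81 to 0.91; adjusted p up to 0.106, limma). Foxo3 no longer passed when any 1 of the 6 arrays was left out (-0.16 to -0.15; highest adjusted p = 0.154). The list held 2 calls in place of 4 without TFEB-injected replicate 2 or not-injected replicate 1, 2 or 3. The insulin receptor gene Insr (-0.14 ± 0.05) and the glucagon receptor gene Gcgr (-0.15 ± 0.04) did not pass.

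Of 13 measured genes of osmolyte and cell volume control, 1 rose and 1 fell, with a median of 0.08. Sgk1, for a kinase induced by cell shrinkage and glucocorticoids, rose by 0.35 ± 0.06 (adjusted p = 0.00537, limma), and Slc6a12, for the betaine transporter, fell by 0.22 ± 0.06. The Slc6a12 call was lost without TFEB-injected replicate 1 or 2 or not-injected replicate 1, 2 or 3 (-0.26 to -0.19; adjusted p up to 0.139), which left a count of 1. Nfat5, for the osmotic stress transcription factor, changed by -0.15 ± 0.05 and did not pass. Over the 8 lists, including the other aquaporins, 7 of 62 measured genes rose and 13 fell, or 32.3%, beside 17.9% of all genes. The lists were chosen with earlier results of these arrays known, so the higher share is a description and shows no enrichment.

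**Figure D3:**
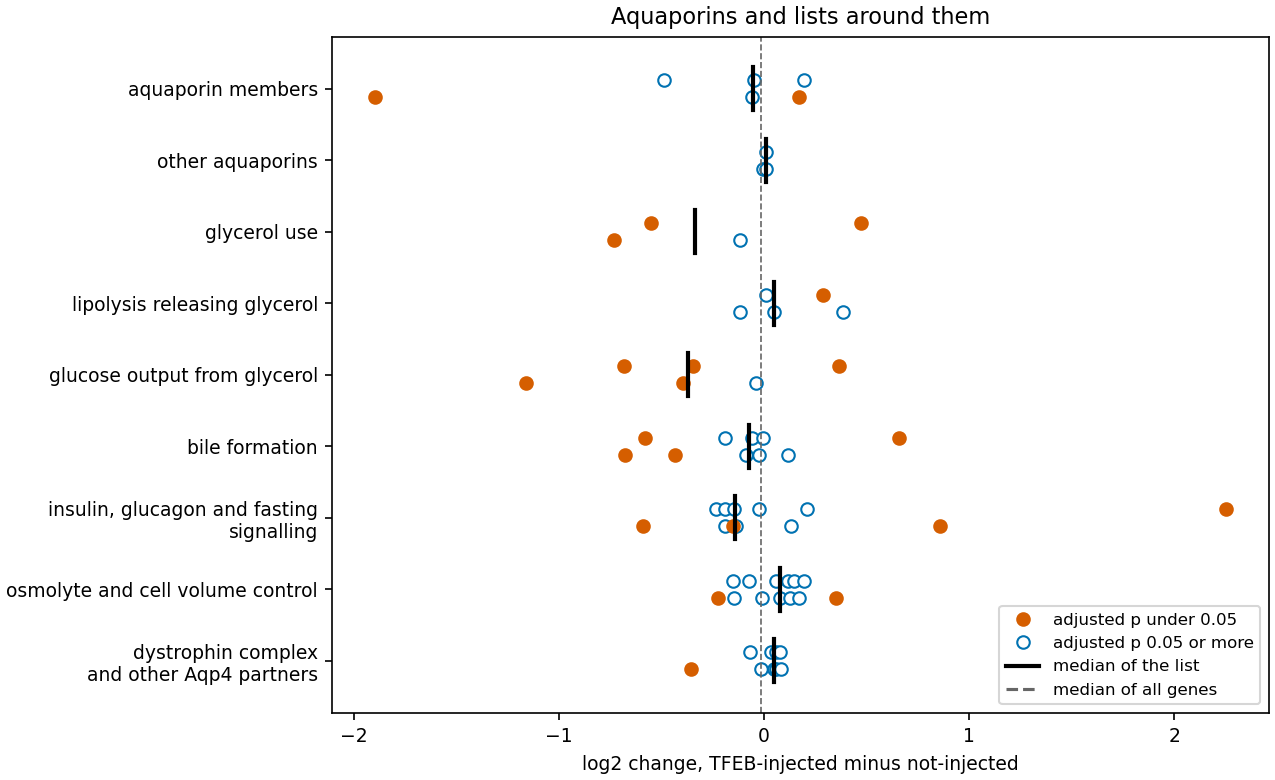
Log2 change (TFEB-injected minus not-injected, x axis) of each measured gene of the aquaporin family and of the 8 lists around it, with genes that passed (filled), genes that did not (open), the median of each list (bar) and the median of all genes (dashed line, -0.01). Aqp4 at -1.90 and Ppargc1a at 2.25 are the outermost points, and the lists of glycerol use and glucose output have medians of -0.34 and -0.37.

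The counts of all cell type lists stand beside 9.99% of all genes called higher and 7.92% called lower. Of 6 hepatocyte markers 1 fell and 0 rose, with a median of -0.09. Asgr1, for an asialoglycoprotein receptor subunit, fell by 0.36 ± 0.05, and the summed hepatocyte level was 16.83 to 16.88 in TFEB-injected and 16.91 to 16.92 in not-injected arrays. Among 7 stellate cell and fibroblast markers 1 rose (Col3a1, 0.32 ± 0.05) and 2 fell, with a median of -0.11. Lrat, for retinol storage, fell by 0.48 ± 0.10, a call lost without TFEB-injected replicate 2 or not-injected replicate 2 or 3 (-0.49 to -0.44; adjusted p up to 0.058, limma). The summed stellate cell level was 12.40 to 12.45 in TFEB-injected and 12.46 to 12.50 in not-injected arrays. Of 6 pancreatic acinar markers 3 fell and 0 rose, with a median of -0.29, with the smallest p for the trypsinogen gene Prss2 (-0.38 ± 0.07), and the summed level was 8.32 to 8.46 in TFEB-injected and 8.58 to 8.73 in not-injected arrays. The array values are never 0, so no marker could be called absent. The part of any of these lists in the aquaporin values was not tested.

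**Figure D4:**
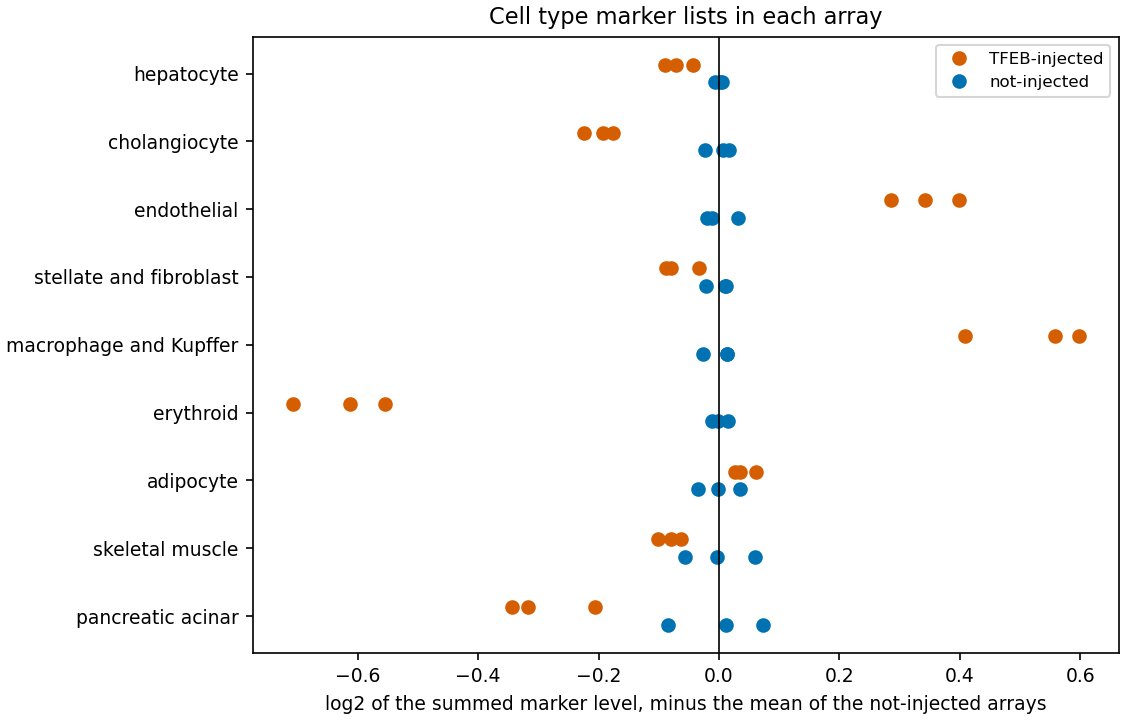
Log2 of the summed linear level of each cell type marker list in each array, minus the mean of the 3 not-injected arrays (x axis), with 1 point per array. Macrophage and endothelial sums lie higher in the 3 TFEB-injected arrays. In the endothelial list, Stab2 and Lyve1 are the only called genes and the median change is -0.03. Adipocyte sums overlap, and the other 6 sums lie lower, the erythroid sum, in which Alas2 is the called gene, the furthest.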

How the data were processed

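Liver RNA of 6 mice, 1 array each, was measured on an Affymetrix mouse array. The authors' deposited table gives a log2 level for each probe set, between 3.08 and 15.20; the submitters' processing notes name affy and RMA, without versions. RMA sets all arrays to one distribution, which hides overall shifts in RNA content and compresses changes of dim genes. The labels call the arrays biological replicates.

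The series table held 22690 probe sets, 64 of them controls; 20393 had 1 gene symbol, 691 several and 1606 none. The gene IDs of 20364 were in the RefSeq gene table, and 0 symbols needed updating. With 1 probe set per gene, 12393 genes were fitted with limma 3.58.1 in R 4.3.3 (lmFit, eBayes), with Benjamini-Hochberg adjustment over all genes, a threshold of 0.05 and 95% intervals. "Rose" and "fell" mark genes past that threshold. Figures and motif searches used Python 3.11.15 and matplotlib 3.10.9. The fit was tested on simulated data in which each gene had the same spread in both groups. The wider spread of the TFEB-injected group was not simulated.

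The members, lists and tests were chosen with earlier results of these data known. Named from each pathway list were the 2 called genes with the smallest p in each direction (1 for cell type lists), or, in a list with no call, its gene of lowest p. Gpd2, G6pc, Kcnj10, Sntb2, Insr, Gcgr, Nfat5, Aqp5, Mip, Ttr, Alb, Adipoq, Lyve1 and Hba-a1 were added after their values were seen. For the called members with the largest fall and rise, the 3 genes with the highest Pearson r over 6 arrays were named. The 15 alternatives covered the probe set per gene, scaling, dim genes, prior, array weights, the replicate block and leaving out each array.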

Additional observations from a re-analysis of the deposited data

How the results depend on the processing

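The change of Aqp4 lay between -1.98 and -1.73 under the 15 alternatives, given as a description, and Aqp1 and Aqp9 passed under none of them. The count of called members, Aqp4 included, was 2 in the report's fit and 4 with array weights. It was 1 with every probe set tested, with an intensity trend and robust prior and with the replicate block. It was also 1 when dim genes, those under the median level, were dropped (where Aqp3 and Aqp7 are not tested). Without 1 array the count was 1 to 3. Aqp4 is in each of these counts, and where the count is 1 it is the only member. Its call is not read as a test, so only the calls of the other members are read from these counts. The change of Aqp3 lost its call with the mean of its probe sets (0.061), with every probe set, an intensity trend or the replicate block (0.17 in each), and ran from 0.15 to 0.19 without 1 array. Aqp7 passed with the mean of its probe sets (0.22) and with array weights (0.36), and ran from 0.11 to 0.25 without 1 array. Aqp8 passed with array weights (-0.48) and ran from -0.75 to -0.22 without 1 array. With array weights 5854 genes of all and 37 of the pathway genes passed, against 2219 and 20 without; the weights did not converge and gave TFEB-injected replicate 2 a weight of 16.3, against 0.24 to 1.19 for the others. Without 1 array, 1229 to 2409 of all genes and 14 to 24 pathway genes passed. The replicate block, a number shared without a known pairing, left 1533 genes called; deviations of same-numbered arrays correlated at 0.01, -0.13 and -0.11, and 0 of the 3 TFEB-injected arrays correlated best with their own number. The value of Aqp2, close to 0, turned to -0.018 with array weights, and ran from -0.038 to 0.047 without 1 array, at -0.0044 without not-injected replicate 2 and -0.00098 without not-injected replicate 3. The number of arrays limits the precision, and signal over background is not known.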
